A study of Homo sapiens with 8 samples.

Results

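The GATA2 binding regions described here lie in gene deserts, the long stretches of the human genome that hold no protein-coding gene. GATA2 binding had been mapped by chromatin immunoprecipitation and sequencing, which recovers the DNA fragments that a factor was bound to, in VCaP cells. Peaks of 4 lists on chromosomes 1 to 22, X and Y were chained into merged regions wherever they overlapped by 1 bp or more. A region was a member when its midpoint lay more than 500 kb from the span of every protein-coding gene in the RefSeq annotation of GRCh38. Of 36122 merged regions, 2274 (6.30%) met this rule, and the other 33848 served as the comparison. The rule used positions only and no peak value.

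VCaP is an established human prostate cancer cell line described in the labels as castrate-resistant. All cells had been kept in steroid-depleted conditions for 72 h, and 24 h before harvest they received either 1 µM JQ1 or a DMSO control. The control samples are titled as not treated and are called untreated here. The 8 labelled samples comprise 2 GATA2 precipitates and 2 input chromatin samples for each treatment. Each precipitate has its own peak list, and no list was used for the 4 inputs. Whether the replicates were grown as separate cultures is not stated in the labels, and the p-values below therefore measure only the spread between these samples. Peak lists hold no marker expression by which the labelled cell type could be checked.

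GATA2 is a zinc-finger transcription factor that binds short DNA sequences built around the letters GATA. It is best known for its part in blood and endothelial development, and in prostate cells it binds at many enhancers used by the androgen receptor. Gene deserts often flank genes for developmental regulators or for neuronal adhesion proteins and can hold enhancers that act on a gene far away. JQ1 is a BET inhibitor: it fills the pocket with which proteins of that family hold acetylated histones at active enhancers and promoters.

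The 4 lists differed greatly in length. On the chromosomes used, there were 6902 peaks for untreated replicate 1 and 27373 for untreated replicate 2, and with JQ1 there were 4974 for replicate 1 and 32404 for replicate 2. Both replicate 2 lists were therefore several times longer than both replicate 1 lists, and this split crosses the treatments. Read depth was not given in the files, so that its part in the length of a list was not tested. The enrichment and the q-value of every peak are those of the authors' peak caller and rank peaks within 1 list only. A peak's rank is given as a percentile, where a low value means a strong peak.

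Sequences could be shown where a member overlapped the start of a non-coding gene, since RefSeq (GRCh38.p14) gives the 300 bases from 250 before to 50 after each start. Of 689 such windows lying over 500 kb from protein-coding spans, 4 (0.581%) were overlapped by a member, and all 4 belong to long non-coding RNAs. The pair with the strongest peaks is printed 5′ to 3′ on the gene's strand, which is the minus strand for both. Capitals mark matches to 4 common forms of the GATA site, searched on both strands: the word AGATAA, the word TGATAA, the word AGATAG and the word TGATAG. No 2 of these words can match the same position on 1 strand. A match on the opposite strand is printed as its reverse complement, which for AGATAA is the word TTATCT and for TGATAG is the word CTATCA.
LOC107984362, chr11:39489883-39490182: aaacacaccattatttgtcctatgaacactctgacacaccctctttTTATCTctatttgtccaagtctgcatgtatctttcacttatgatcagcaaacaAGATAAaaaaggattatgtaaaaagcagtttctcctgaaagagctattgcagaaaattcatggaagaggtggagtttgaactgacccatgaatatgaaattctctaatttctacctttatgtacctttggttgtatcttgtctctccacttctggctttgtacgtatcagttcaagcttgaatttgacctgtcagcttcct
LOC124908051, chr2:104332778-104333077: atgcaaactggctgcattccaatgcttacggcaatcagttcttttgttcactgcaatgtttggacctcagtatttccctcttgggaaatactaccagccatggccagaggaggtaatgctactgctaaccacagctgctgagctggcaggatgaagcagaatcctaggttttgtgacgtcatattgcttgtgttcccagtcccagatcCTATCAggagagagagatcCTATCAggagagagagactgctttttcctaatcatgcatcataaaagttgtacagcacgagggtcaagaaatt

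The window of LOC107984362 lies in the desert between IFTAP and LRRC4C, 624 kb from LRRC4C, which encodes a synaptic adhesion protein. Its member, chr11:39489982-39490277, was present in both replicate 2 lists, with a −log10 q of 28.1 in untreated cells and 28.0 with JQ1. The summits lay at -179 and -191 bases from the start, between the 2 matches to AGATAA, which begin at -204 and -151. The window of LOC124908051 lies inside a member on chromosome 2 (104332647 to 104333256) that is 520.3 kb from POU3F3, a neural transcription factor gene. That member was also present in both replicate 2 lists, with a −log10 q of 32.5 in untreated cells and 50.4 with JQ1. Its summits lay at -279 and -283 bases from the start and so just outside the window, while the 2 matches to TGATAG begin at -42 and -23.

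The other 2 windows had weaker peaks. At LOC124909415, between LSAMP and IGSF11, the −log10 q was 2.76 in untreated replicate 2 and 4.58 in JQ1 replicate 2. At LOC105374702, between LOC124901178 and CDH6, the peak was in untreated replicate 2 only, with a −log10 q of 5.72. Neither of these members was present in a replicate 1 list. All 4 windows held at least 1 motif match. The same was true of 50.1% of the 689 desert windows and of 25.0% of all 35116 windows in the table, and a match is a description of the letters and not of a bound site.

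MicroRNA genes offered a second set of sequences. A microRNA is a short RNA that pairs with messenger RNAs, mainly through its seed (bases 2 to 8), which is in capitals. RefSeq lists the mature forms below, 1 per gene, for the microRNA genes within 15 kb of a member that was present in 3 or 4 lists. The limit, the number of lists and the form shown for each gene were chosen after the values were seen.
hsa-miR-221-3p: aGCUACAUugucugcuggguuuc
hsa-miR-222-3p: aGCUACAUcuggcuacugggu
hsa-miR-4303: uUCUGAGCugaggacag
hsa-miR-99a-5p: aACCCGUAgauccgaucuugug
hsa-let-7c-5p: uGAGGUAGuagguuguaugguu

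The microRNAs hsa-miR-221-3p and hsa-miR-222-3p share the seed GCUACAU. Their genes, MIR221 and MIR222, lie 10.2 and 9.31 kb from a member on chromosome X (45756436 to 45756902), which falls within MIR222HG, their host transcript. The −log10 q of this member was 62.6 and 174 in untreated replicates 1 and 2 and 42.4 and 101 in JQ1 replicates 1 and 2. It was thus present in all 4 lists and stood among the 10 members with the best mean rank.

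MIR4303 lies 7.52 kb from a member on chromosome 12 (98002971 to 98003223). There the −log10 q of untreated replicates 1 and 2 was 33.3 and 47.2, and that of JQ1 replicates 1 and 2 was 5.38 and 56.4. This member too was called in every list, though the call in JQ1 replicate 1 was weak. MIR99A and MIRLET7C, 10.1 and 9.38 kb from a member on chromosome 21 (16549289 to 16549604), belong to the host transcript MIR99AHG, which carries 11 members. That member was absent from untreated replicate 1 and had a −log10 q of 23.6 in untreated replicate 2, 7 in JQ1 replicate 1 and 14.6 in JQ1 replicate 2.

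JQ1 left the number of desert peaks within the spread between replicates. Untreated replicate 1 had 327 desert peaks, untreated replicate 2 had 1800, JQ1 replicate 1 had 275 and JQ1 replicate 2 had 2005. The counts were low in both replicate 1 lists and high in both replicate 2 lists, and the treatments overlapped fully. On the log2 scale the JQ1 lists differed from the untreated lists by -0.05 (a ratio of 0.968; two-sided exact permutation test over splits of the 4 lists, p = 1). Within replicate 1 the ratio of JQ1 to untreated was 0.841, and within replicate 2 it was 1.11. The same ratios for all other peaks were 0.715 and 1.19, so that desert and other peaks went in the same direction within each replicate number. With 2 lists against 2, this test cannot give a p below 0.333.

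**Figure D1:**
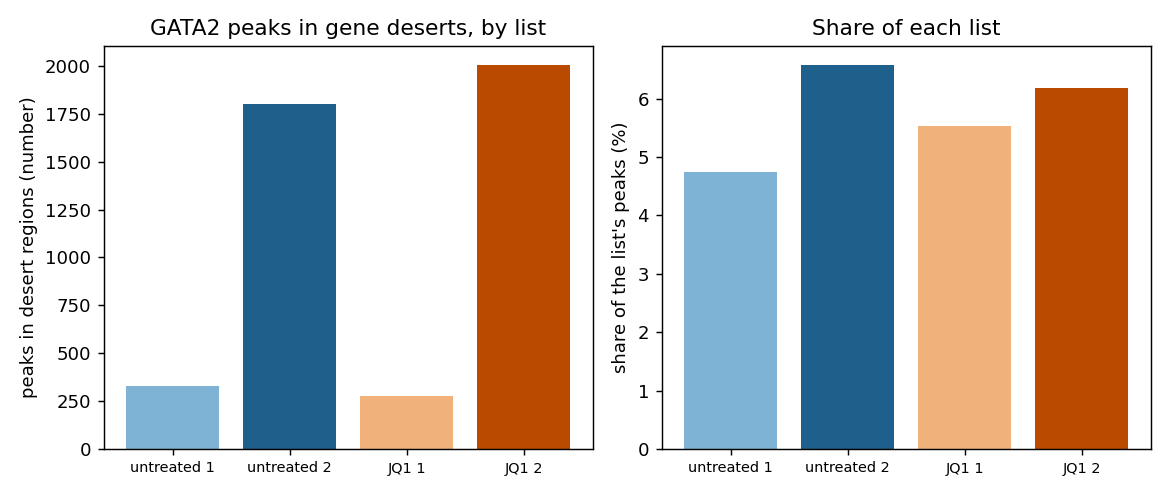
Number of GATA2 peaks in desert regions (left) and their share of all peaks in the list in percent (right), with 1 bar per list and no error bar because each bar is a single sample. The numbers run from 275 to 2005 and follow the replicate number, while the shares stay between 4.74% and 6.58%.

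The share of a list's peaks that lay in deserts varied much less than the number. It was 4.74% in untreated replicate 1, 6.58% in untreated replicate 2, 5.53% in JQ1 replicate 1 and 6.19% in JQ1 replicate 2. Both short lists had lower shares than both long lists, and the lowest and the highest share were both in untreated cells. The means were 5.66% ± 1.30 (SD, n = 2) untreated and 5.86% ± 0.466 (SD, n = 2) with JQ1, a difference of 0.201 percentage points (exact permutation test, p = 1).

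Deserts held fewer peaks per length of sequence than the rest of the genome. Sequence over 500 kb from protein-coding genes made up 334.6 Mb, or 11.4% of the total between the first and last region of each chromosome. In untreated replicate 1 there were 0.977 peaks per Mb in deserts and 2.52 elsewhere. Untreated replicate 2 had 5.38 per Mb in deserts and 9.80 elsewhere. JQ1 replicate 1 had 0.822 and 1.80, and JQ1 replicate 2 had 5.99 and 11.7. The density was lower in deserts in 4 of 4 lists, with a mean log2 ratio of -1.08 (0.473-fold). The two-sided exact sign-flip permutation test over the 4 lists gave p = 0.125, which is the smallest p that 4 lists allow, and 0.40 after Benjamini-Hochberg adjustment over the 8 tests made. The lengths include assembly gaps and repeats in which no peak can be called, and their part was not tested. Counting only sequence within 100 kb of any annotated gene or pseudogene, an alternative added after seeing the data, left ratios of 0.534, 0.786, 0.638 and 0.742 in the same list order.

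Desert peaks ranked slightly lower than other peaks of the same list. Their median percentile by q was 50.6 in untreated replicate 1, against 49.97 for all other peaks. It was 54.0 against 49.8 in untreated replicate 2, 53.3 against 49.9 in JQ1 replicate 1 and 52.5 against 49.9 in JQ1 replicate 2. The direction was the same in 4 of 4 lists, by a mean of 2.71 percentile points (exact sign-flip test, p = 0.125, adjusted p = 0.40). The difference was 0.623 points with lists of equal length and 0.197 with a desert limit of 250 kb, and it turned to -0.614 with a limit of 1000 kb. The strongest peaks were not missing from deserts. Desert peaks made up 3 of the 69 peaks in the top 1% of untreated replicate 1 and 22 of 273 (8.06%; 95% Wilson interval 5.38 to 11.9) in untreated replicate 2. With JQ1 they made up 4 of 49 in replicate 1 and 17 of 324 in replicate 2. Each of these shares had an interval that included the share of deserts in the whole list.

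The shape of the peaks differed little. Median widths of desert and other peaks were 217 and 217 bp in untreated replicate 1 and 248 and 240 bp in untreated replicate 2. They were 221 and 213 bp in JQ1 replicate 1 and 234 and 228 bp in JQ1 replicate 2, for a mean difference of 5.5 bp (exact sign-flip test, p = 0.25). The median fold enrichment of desert peaks was 6.22, 7.46, 5.94 and 6.32 in the order of the lists, against 6.13, 7.46, 5.94 and 6.63 elsewhere. The mean log2 difference was -0.01 (exact sign-flip test, p = 0.75), and it had no common sign across the lists.

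The local background under each summit, in reads as scaled by the caller, could be solved from the deposited enrichment and p-value. It was lower in deserts in 3 of 4 lists. The medians were 2.34 in deserts and 2.71 elsewhere in untreated replicate 1, 1.87 and 2.28 in untreated replicate 2, and 2.18 and 2.50 in JQ1 replicate 1. In JQ1 replicate 2 both medians were 2.77, which is also the commonest single value of that list. The mean log2 difference was -0.17 (a ratio of 0.886; exact sign-flip test, p = 0.25). In untreated replicate 2, 31.4% of desert peaks carried the commonest background value of the list, 1.34, against 13.8% of its other peaks. In the other 3 lists the commonest value was carried by 9.48% to 12.9% of desert peaks and by 12.2% to 13.4% of the others. These shares do not concern like values. The commonest value was below the list median of 2.16 in untreated replicate 2. In untreated replicate 1 and JQ1 replicates 1 and 2 it was 3.10, 2.70 and 2.77, at or above list medians of 2.71, 2.50 and 2.77. The solved pileup at the summit, added after seeing the data, was lower in deserts by 0.09 on the log2 scale (exact sign-flip test, p = 0.25; 3 of 4 lists).

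Of the 2274 desert regions, 170 were present in all 4 lists (7.48%; Wilson interval 6.47 to 8.63), where 8.96% of all 36122 regions were and 9.06% of those outside deserts (8.76 to 9.37). The intervals of the 2 shares do not overlap. Regions are not replicates, and the intervals cover counting error only. By distance the share was 7.03% (122 of 1735) between 500 and 1000 kb from a gene and 8.91% (48 of 539) beyond 1000 kb. It was 8.87% inside genes, 9.82% up to 50 kb away, 9.02% from 50 to 250 kb and 8.51% from 250 to 500 kb. The share beyond 1000 kb had an interval from 6.78 to 11.6 that included every other class, so that no steady fall with distance was detectable.

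**Figure D2:**
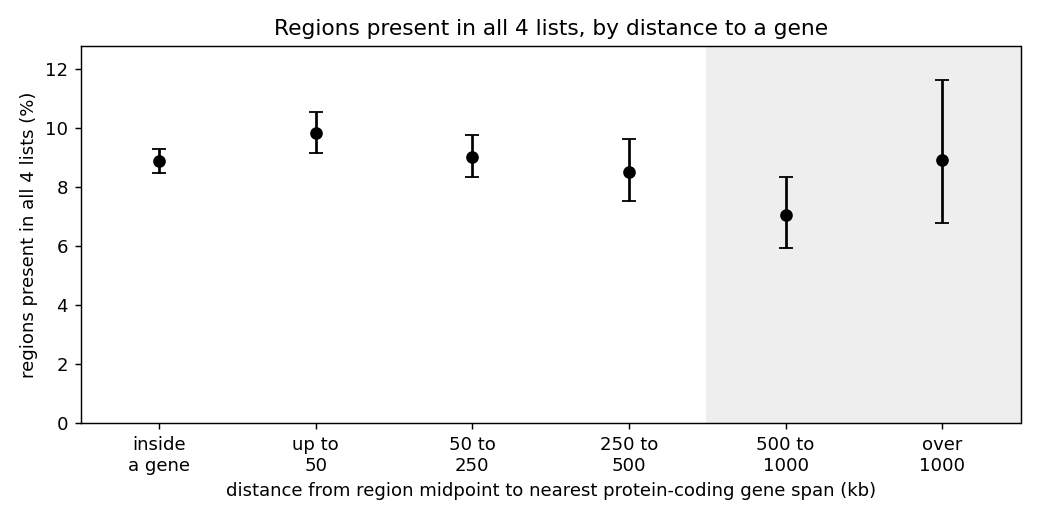
Share of merged regions present in all 4 lists, in percent, by distance from the region midpoint to the nearest protein-coding gene span in kb. Points are shares and bars are 95% Wilson intervals over regions; the shaded classes are the desert regions, at 7.03% and 8.91%.

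Members called in every list ranked high in the long lists and less high in the short lists. Their median percentiles were 32.2 and 7.02 in untreated replicates 1 and 2 and 35.3 and 7.61 in JQ1 replicates 1 and 2. For such regions outside deserts they were 28.8, 7.96, 37.2 and 7.42 in the same order. Over the 170 members the −log10 q had a lowest value, median and highest value of 1.47, 14.0 and 123 in untreated replicate 1, and of 4.85, 72.9 and 239 in untreated replicate 2. For JQ1 replicate 1 they were 1.61, 10.9 and 88.1, and for JQ1 replicate 2 they were 4.22, 61.6 and 259. The medians for the 3066 such regions outside deserts were 15.1, 68.3, 10.4 and 62.4 in the same order. The merged regions were 427.5 bp wide in the median in deserts and 393 bp elsewhere. The summits of the 4 lists fell close together, with a median of 24 bp between the outermost summits in deserts and 24 bp elsewhere. In 139 of the 170 members (81.8%; 75.3 to 86.8) the summits lay within 50 bp, against 86.0% (84.8 to 87.2) outside deserts.

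Desert regions were more often confined to untreated replicate 2. There were 380 such members (16.7%; 15.2 to 18.3), where 13.3% of all regions and 13.0% (12.7 to 13.4) of those outside deserts followed this pattern. Their 383 peaks were weak, with a median −log10 q of 5.80 and a median percentile of 82.3. A further 556 members (24.5%; background 25.9%) were found only in JQ1 replicate 2, where their 565 peaks had a median −log10 q of 6.11 and a median percentile of 76.8. The commonest pattern was presence in both replicate 2 lists and neither replicate 1 list, with 924 members (40.6%; background 38%). Only 3 members were unique to untreated replicate 1 (background 0.634%) and 4 to JQ1 replicate 1 (background 0.202%).

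Regions that recur within a treatment made up a smaller share in deserts, with separate intervals for the untreated lists only. Both untreated lists held 312 members (13.7%; 12.4 to 15.2), against 17.6% of all regions and 17.9% (17.5 to 18.3) outside deserts. Both JQ1 lists held 262 members (11.5%; 10.3 to 12.9), against 13.1% of all regions. Outside deserts that share was 13.2% (12.8 to 13.5), and the intervals overlap slightly. Regions that only JQ1 replicate 1 lacked numbered 133 in deserts (5.85%; 4.96 to 6.89), against 8% of all regions. Regions that only untreated replicate 1 lacked numbered 85 (3.74%), against 3.68% of all regions.

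Very few members separated the treatments. Both untreated lists but neither JQ1 list held 7 members (0.308%; 0.149 to 0.634; background 0.62%). Both JQ1 lists but neither untreated list also held 7 (0.308%; 0.149 to 0.634; background 0.377%). Both background shares lie within the interval. The shares outside deserts were 0.641%, just above the interval, and 0.381%, within it.

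The 5 untreated-separated members named by rule had percentiles from 23.6 to 78.8. The first by the poorer of its 2 percentiles, between TSN and CNTNAP5 on chromosome 2 (123047880 to 123048085), had a −log10 q of 13.8 and 16.8 in untreated replicates 1 and 2. A member between SERPINB8 and CDH7 on chromosome 18 (65248582 to 65248847) reached 10.6 and 31.9. Others lay between NEDD1 and TMPO (8.64 and 8.81), between IGFBP7 and LOC124900173 (8.22 and 6.78), and between LOC105373397 and SOX11 (16.9 and 6.50). SOX11 is a transcription factor gene of the developing nervous system, and CDH7 and CNTNAP5 encode adhesion proteins.

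The 5 JQ1-separated members named by the same rule were in the weaker part of the short JQ1 list. Between SLC4A3 and EPHA4 on chromosome 2 (220533614 to 220533853) the −log10 q was 5.63 and 20.7 in JQ1 replicates 1 and 2. A member between MYC and GSDMC, within the non-coding gene LINC00824, had 4.73 and 15.1. Those between GRIK2 and HACE1 (4.29 and 18.2) and between TRHDE and ATXN7L3B (4.25 and 13.4) had similar values. The one between EPHA5 and CENPC (4.42 and 4.67) was weaker in JQ1 replicate 2. The 5 had percentiles from 70.0 to 82.1 in JQ1 replicate 1 and from 31.4 to 85.9 in JQ1 replicate 2.

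Recovery of a desert peak under the other treatment depended on the list and on its strength. Counting distinct intervals within the same replicate number, 173 of 319 untreated desert peaks (54.2%; 48.7 to 59.6) were found with JQ1 in replicate 1, against 48.3% (47.1 to 49.6) of other peaks. In replicate 2, 1316 of 1706 (77.1%; 75.1 to 79.1) were found with JQ1, against 81.1% (80.6 to 81.5). The desert share was thus higher in one replicate number, with overlapping intervals, and lower in the other. In the reverse direction, 64.2% of JQ1 desert peaks were found in untreated cells in replicate 1 and 70.1% in replicate 2, against 67.9% and 68.9% of other peaks.

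Among the strongest 20% of each list the treatments shared nearly every desert peak, and most of the other peaks too. In replicate 1, 55 of 58 untreated desert peaks were found with JQ1 (94.8%; 85.9 to 98.2), against 88.1% of other peaks, and 50 of 53 JQ1 desert peaks (94.3%) were found in untreated cells, against 95.4%. In replicate 2, 316 of 316 untreated desert peaks were found with JQ1 and 365 of 365 JQ1 desert peaks were found in untreated cells, against 99.96% and 99.1% of other peaks. Within untreated cells, 314 of the 319 desert peaks of replicate 1 (98.4%) were also in replicate 2. With JQ1, 264 of 271 (97.4%) were. The short lists were therefore almost entirely contained in the long ones.

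A mean rank was computed only for the 170 members present in all 4 lists, and the 10 best of these are described here. The first lies on chromosome 8 (129124736 to 129125387), in the desert between MYC, which encodes a growth-promoting transcription factor, and GSDMC, 580.4 kb from the latter. Its −log10 q was 76.1 and 239 in untreated replicates 1 and 2 and 88.1 and 259 with JQ1. In both JQ1 lists it stood within the top 0.181% of peaks.

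The second lies between SEL1L, which acts in the degradation of misfolded proteins, and LOC124903401 on chromosome 14 (82257437 to 82257832). Its −log10 q was 123 and 158 in untreated cells and 87.6 and 199.6 with JQ1. The third lies between CADM1, a cell adhesion gene, and BUD13 on chromosome 11 (116069382 to 116069792), with 109.8 and 222 in untreated cells and 54.9 and 226 with JQ1. These 3 had the 3 highest values of the 10 in both replicate 1 lists.

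The remaining 7 ranked within the top 5% of every list. Of these, the member between TMEFF2 and SLC39A10 on chromosome 2 (193273031 to 193273399) had a −log10 q of 70.1 and 204 in untreated cells and 32.0 and 159 with JQ1. The member between SYT4 and SETBP1 on chromosome 18 (44066546 to 44066962) had 48.0 and 229.6 untreated and 39.5 and 189.7 with JQ1. On chromosome 11, the member between JRKL and CNTN5 (98056821 to 98057594) had 56.3 and 196 untreated and 38.4 and 155 with JQ1. The widest, 1042 bp between IFTAP and LRRC4C (37306148 to 37307189), had 43.4 and 162 untreated and 39.3 and 148 with JQ1. The member between OTOL1 and SI on chromosome 3 (162619512 to 162619878) had 67.3 and 128 untreated and 37.8 and 91.2 with JQ1. The others are the member beside MIR221 and MIR222, given above, and one between ADGRL3 and TECRL described below. At these 10 members the outermost summits of the 4 lists lay 5 to 19 bp apart.

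**Figure D3:**
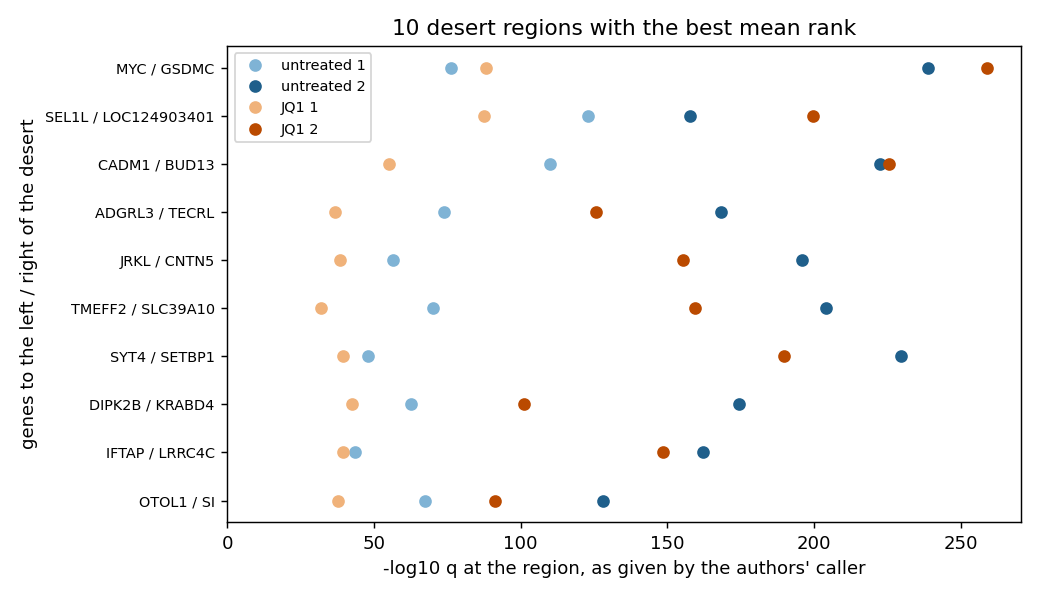
The −log10 q given by the authors' caller at the 10 desert regions with the best mean rank, with 1 point per list and the genes on either side of the desert named. Only regions present in all 4 lists were ranked. In every row both replicate 2 points lie to the right of the replicate 1 points, from 91.2 to 259.

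The median member lay 733 kb from the nearest protein-coding gene, and 7 lay over 2000 kb away. The farthest, on chromosome 4 between PCDH7 and ARAP2 (33481717 to 33482306), was 2335 kb from PCDH7, a protocadherin gene. It was present in both replicate 2 lists, with a −log10 q of 31.2 untreated and 23.8 with JQ1. The same desert held the second and the third farthest members. One of these (33300473 to 33300821) was in all 4 lists, with 8.12 and 65.3 untreated and 2.36 and 54.0 with JQ1. The fourth and the fifth farthest, in the deserts LOC105372073 to PIK3C3 and NCAM2 to MRPL39, were in untreated replicate 2 only, with 5.72 and 3.94.

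At the 500 kb limit itself, the 2 members just inside lay 500.02 kb from MGAT4C and 500.08 kb from FRK. The first was in all 4 lists and the second in JQ1 replicate 2 only. The 2 regions just outside lay 499.99 kb from ZNF608, in both replicate 2 lists, and 499.81 kb from CA8, in untreated replicate 2 only.

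Members were spread over many deserts. The annotation has 331 gaps of more than 1000 kb between protein-coding spans, and 237 of them held a member while 94 held none. All but 5 members lay in such a gap. A gap with a member held 6 in the median, 91 gaps held 10 or more, and 95 gaps held a member present in all 4 lists. Chromosome 2 had the most members (280), followed by chromosomes 4 (237) and 5 (194). Members made up 20% of the 60 regions on chromosome Y, 14.5% of all regions on chromosome 13 and 13.9% on chromosome 21. Chromosome 16 had 1 member and chromosome 22 had 2. The next region lay 15.8 kb away in the median for members and 14.8 kb away for other regions, and 41.0% and 40.9% had one within 10 kb.

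The 5 fullest deserts held 209 members (9.19%). The desert from TENM4, a teneurin adhesion gene, to FAM181B on chromosome 11 held 49, of which 11 and 35 were in untreated replicates 1 and 2, 9 and 42 in JQ1 replicates 1 and 2, and 7 in all 4 lists. The desert from SLITRK5 to GPC5 on chromosome 13 held 46, with 8, 34, 3 and 37 in the same list order and 1 in all 4. SLITRK5 encodes a synaptic membrane protein and GPC5 a cell-surface proteoglycan. The desert from NUDT12 to EFNA5, an ephrin ligand gene, held 40 (4, 31, 4 and 35; 2 in all 4 lists). MAT2B to TENM2, another teneurin gene, held 38 (4, 27, 2 and 34; 2 in all 4), and CTNNA2 to SUCLG1 held 36 (4, 29, 7 and 30; 4 in all 4). In these 5 deserts JQ1 replicate 2 had more members than untreated replicate 2.

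**Figure D4:**
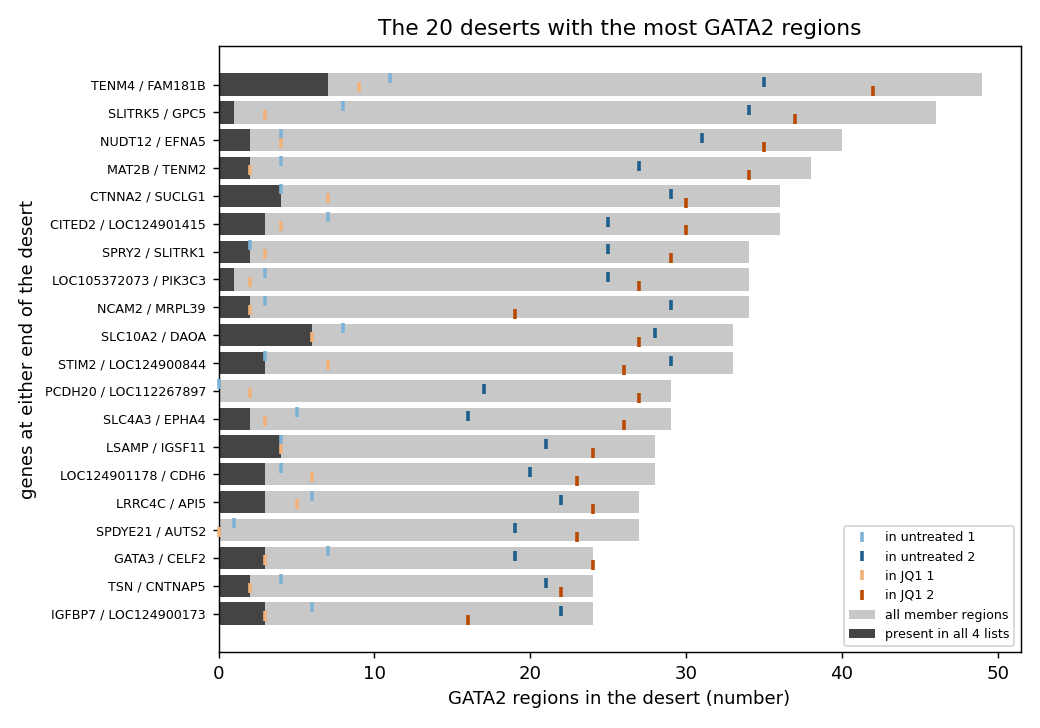
The 20 deserts with the most GATA2 regions: grey bars give the number of member regions, dark bars those present in all 4 lists, and coloured ticks the number present in each list. The ticks of both replicate 1 lists lie at 11 or below in every desert, and those of both replicate 2 lists at 16 or above.

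In several other deserts untreated replicate 2 had more members than JQ1 replicate 2, and those described here were chosen after their values were seen. The 19 members between ADGRL3, an adhesion receptor gene, and TECRL on chromosome 4 were spread as 1, 16, 1 and 5 over untreated replicates 1 and 2 and JQ1 replicates 1 and 2, and 14 of them were in untreated replicate 2 only. The peaks of that list were weak there, at a median percentile of 97.6. The median local background at the peaks was 8.75 in untreated replicate 1, 2.00 in untreated replicate 2, 6.97 in JQ1 replicate 1 and 7.39 in JQ1 replicate 2. The medians over all peaks of the 4 lists were 2.71, 2.16, 2.50 and 2.77 in the same order. Only in untreated replicate 2 was the median in this desert below that of its whole list. The pileup of untreated replicate 2 carried a fitted scale of 0.686, against 1 in the other lists. Its background values are therefore not in the same unit as theirs and cannot be ranked against them. The values do not come from the same places, since each replicate 1 list had 1 peak in this desert and untreated replicate 2 had 17. Both of those single peaks belong to the 1 member in all 4 lists (63717455 to 63718027), which was among the 10 best, with a −log10 q of 73.8 and 168 untreated and 36.8 and 126 with JQ1. At that member the background of untreated replicates 1 and 2 was 8.75 and 5, and that of JQ1 replicates 1 and 2 was 6.97 and 11.1. Each of these values was above the median of its own list.

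A second such desert, NCAM2 to MRPL39 on chromosome 21, held 34 members, spread as 3, 29, 2 and 19 over the lists, of which 15 were in untreated replicate 2 only. Its median background was 5.24, 2.13, 3.21 and 4.62, with the value of untreated replicate 2 again in its own unit. In 2 further deserts, also chosen after their values were seen, a like background went with fewer regions of that pattern. Between SLC10A2 and DAOA it was 4.42, 2.28, 4.73 and 3.67, with 5 of 33 members in untreated replicate 2 only. Between LOC124905050 and HEMK2 it was 4.31, 2.13, 4.03 and 4.62, with 4 of 18 members in untreated replicate 2 only. The desert between IGFBP7 and LOC124900173 had 22 members in untreated replicate 2 and 16 in JQ1 replicate 2, without a high background. The medians there were 1.55, 1.34, 1.52 and 2.77, and 7 of 24 members were in untreated replicate 2 only. In the 5 fullest deserts no median was above 3.56. The part of the local background in which list a region was called from was not tested.

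**Figure D5:**
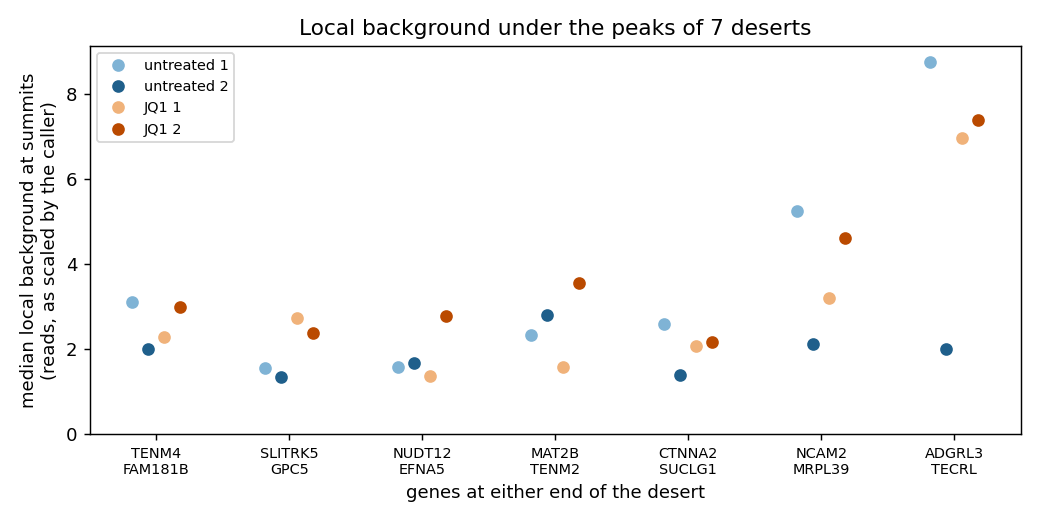
Median local background at the peak summits, in reads as scaled by the authors' caller, for the 5 fullest deserts and for the deserts NCAM2 to MRPL39 and ADGRL3 to TECRL, with 1 point per list. At ADGRL3 to TECRL untreated replicate 2 is at 2.00 and the other lists lie between 6.97 and 8.75. The unit of untreated replicate 2 differs from that of the other lists, since its pileup carried a fitted scale of 0.686.

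Neighbouring genes were counted over 4 lists of genes. Of all 20037 protein-coding genes, 2.25% bordered a desert with a member and 0.933% bordered one with a member present in all 4 lists. Of 50 cell adhesion and synapse genes, 29 bordered a member and 14 a member in all 4 lists. SLITRK1 bordered 50 members, SLITRK5 46, LRRC4C 31 and PCDH20, a protocadherin gene, 29. Beside LRRC4C were 4 members in all 4 lists and beside SLITRK1 3. A member between SLITRK5 and GPC5 (chromosome 13, 90532786 to 90533299) had a −log10 q of 24.0 and 88.5 untreated and 20.4 and 104 with JQ1.

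Of 50 developmental regulators, 19 bordered a member and 5 a member in all 4 lists. This list holds genes known to lie beside gene deserts, and long adhesion genes often do, so that neither count is independent of the rule. ZEB2, a repressor of epithelial genes, bordered 21 members, NR2F1 18, SOX9 18 and SOX11 15. The desert upstream of SOX9, a gene needed for cartilage and testis formation, held 2 members present in every list, on chromosome 17. The first (71098454 to 71099411) had a −log10 q of 15.1 and 63.7 untreated and 11.0 and 25.1 with JQ1. The second (71502478 to 71502847) lay 618 kb from SOX9 and had 14.6 and 73.9 untreated and 11.0 and 65.0 with JQ1. ZEB2 had none in all 4 lists.

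Of 30 androgen-regulated and luminal prostate genes, 2 (6.67%) bordered a member and 1 (3.33%) a member in all 4 lists, beside 2.25% and 0.933% of all protein-coding genes. Of 24 blood and endothelial genes associated with GATA2, 0 bordered a member. Neither count was tested. The 2 prostate genes were GATA3, a close relative of GATA2 in the luminal epithelium, with 24 members, and TRPS1, an atypical GATA-family repressor, with 15. The GATA3 desert, which ends at CELF2, held members in 7 and 19 cases in the untreated lists and in 3 and 24 cases in the JQ1 lists, and 3 were present in all 4.

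The 3 GATA3 members present in every list lay within a short stretch of chromosome 10, between 689 and 746 kb from GATA3. The first (8764117 to 8764563) had a −log10 q of 9.49 and 59.9 untreated and 1.87 and 61.5 with JQ1. The second (8790444 to 8790771) had 19.0 and 101 untreated and 7.82 and 89.1 with JQ1. The third (8821180 to 8821614) had 9.19 and 56.3 untreated and 26.5 and 88.4 with JQ1. The second was the strongest of the 3 in both untreated lists and, narrowly, in JQ1 replicate 2. The third was the strongest in JQ1 replicate 1. TRPS1 had no member present in all 4 lists.

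A desert free of protein-coding genes still holds other genes. The midpoints of 568 members (25.0%) lay on the span of an annotated long non-coding RNA. This share was not computed for other regions or for desert sequence, and the counts per transcript do not allow for its length. The transcripts with the most members, chosen after their values were seen, were LOC105373893 with 14, LINC01122 and LOC105374557 with 13 each, and LOC105376214 with 12. Host transcripts of microRNAs were also among them, namely MIR99AHG and MIR924HG with 11 members each and MIR4300HG with 8.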

How the data were processed

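Per the submitters' processing notes, the authors used Bowtie2, Picard and MACS2 with build hg38, with no version given in these sources. Each deposited peak list belongs to 1 precipitate, so that peaks had been called per sample. Per the file format, the deposited lines hold an interval and summit, the caller's score (not used), a fold enrichment, and −log10 p-values and −log10 q-values from the authors' caller, all with q under 0.05. Left out were 8 contig lines of untreated replicate 2 and 10 mitochondrial lines of JQ1 replicate 1.

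Distances, neighbours and sequences came from RefSeq tables of GRCh38.p14, the same build, with 20037 protein-coding genes. All entries of the gene lists matched by symbol. Where several peaks of a list fell in a region, the strongest by q stood for it in that list. Local background was solved from fold and p as a Poisson tail with a pseudocount of 1 (tolerance 0.001 on −log10 p), for 99.6%, 96.4%, 98.6% and 99.997% of peaks in the order untreated replicates 1 and 2, JQ1 replicates 1 and 2. The pileup of untreated replicate 2 carried a fitted scale of 0.686. The solution for local background, the chaining and the distances were tested on simulated data. The simulated folds and p-values came from the same formula, so that this test cannot show that the formula holds for the caller's output. The lowest background solved in untreated replicate 2 was 0.0781, where the commonest value was 1.34.

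Treatments were compared by exact permutation over splits of the 4 lists, and deserts with other regions by exact sign-flip tests within lists, with Benjamini-Hochberg adjustment over 8 tests (Python 3.11.15, numpy 2.4.6, pandas 2.3.3, scipy 1.17.1). The members, gene lists and rules were chosen with earlier results of these data known. Regions were named by rule: the 10 best by mean rank among members in all 4 lists, up to 5 separated per treatment and the 5 farthest. The 5 fullest deserts, 2 regions on each side of 500 kb and up to 4 neighbour genes per list were also named. Alternatives covered distance, q, list length, overlap, intervals, gene annotation, left-out lists and the replicate block. No genome was used, so that motifs at summits and the sequences of the regions are not analysed here.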

Additional observations from a re-analysis of the deposited data

How the results depend on the processing

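The lower density of peaks in deserts kept its direction under every alternative run, but not its size. The same held for the mean differences in width and local background, each seen in 3 of 4 lists (exact sign-flip tests, p = 0.25). The recovery of untreated peaks with JQ1 stayed within the spread between replicates under every alternative that kept all lists. With lists left out it equals by construction the share of 1 replicate number, 54.2% or 77.1%, and so examines nothing further. The log2 density ratio was -0.70 at 250 kb and -1.91 at 1000 kb. It was -0.58 when only sequence within 100 kb of any annotated gene was counted. When any annotated gene ended a desert it was -7.59, which rests on 4 members and on sequence whose assembly gaps and repeats were not set aside. The width difference was 17.8 bp with equal lists and 23.1 with any gene, and the log2 background difference was -0.08 at 250 kb and -0.48 with any gene. The number of members depends on the rule by construction: it was 4989 with a limit of 250 kb, 539 with 1000 kb, 4 when any annotated gene ended a desert, and 477 with lists cut to the 4974 peaks of the shortest. Leaving out a list, or both lists of a replicate number, gave 416 (without both replicate 2 lists) to 2271 members. The share of members in every list was 8.91% at 1000 kb, 25% (of 4) with any gene, 20.5% with lists of equal length and 6.22% with 50% reciprocal overlap, and 8.91% to 57.9% with lists left out, where fewer lists are needed. Over all regions the share was 8.96%, which a change of distance or annotation does not alter. It was not computed for equal lists, reciprocal overlap or left-out lists, so that the contrast with other regions was not examined there. The rank difference of desert peaks turned to -0.614 percentile points at 1000 kb and -10.5 with any gene, fell to 0.197 at 250 kb, 0.623 with equal lists and 1.38 with q of 1e-05 or less, and ran from 2.02 to 3.41 with lists left out. The log2 difference in fold enrichment turned to 0.028 at 1000 kb, 0.0038 at 250 kb, 0.32 with any gene, 0.044 with equal lists and 0.010 with q of 1e-05 or less, and ran from -0.034 to 0.0094 with lists left out. The log2 ratio of desert peak numbers turned to 0.034 at 1000 kb and 0.091 with equal lists, and ran from -1.48 (without JQ1 replicate 2) to 1.39 (without JQ1 replicate 1). The difference in desert share turned to -0.0053 points with any gene and ran from -0.718 (without untreated replicate 1) to 1.12 (without untreated replicate 2). The cause of these reversals was not tested. With the replicate number as a block the differences were -0.05 and 0.201 (exact sign-flip test over 2 pairs, p = 1). The labels do not say that same-numbered samples were paired. The GATA motif share at summits and its alternatives were not run, since no genome was used. With 2 lists per treatment the exact permutation test cannot give a p below 0.333, whatever the size of a difference between treatments. The lists are also of unequal length, so that a difference smaller than that between replicate numbers cannot be told from it.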
